A study of Mus musculus with 82 samples.

Results

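The genes described here encode 9 subunits of the Polycomb repressive complexes, Ezh2, Eed, Suz12, Jarid2, Mtf2, Ring1, Rnf2, Kdm2b and Cbx7. They were chosen by name and not by a measured value, though with earlier results of these data known. The choice was from 24330 genes with a curated RefSeq transcript, and all 9 were found in the annotation. Polycomb repressive complex 2 (PRC2) trimethylates histone H3 on a lysine and consists of a core that is joined by accessory subunits which bring it to CpG islands. Polycomb repressive complex 1 (PRC1) ubiquitinates histone H2A, and its forms differ in the subunits that tether the ligase to chromatin. In embryonic stem (ES) cells both complexes hold developmental regulator genes in a silent state, while the genes that encode the complexes are themselves transcribed.

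Nascent RNA had been measured in unmodified V6.5 mouse ES cells, a line of mixed strain background grown on gelatin in serum with leukaemia inhibitory factor, without any treatment. In AGTuC, nuclei in bulk extend their nascent RNA by a propargyl-labelled nucleotide in the presence of a strong detergent that breaks the nuclei, and the labelled ends are then joined to DNA by click chemistry. In inAGTuC the detergent is lowered so that nuclei stay whole, and many nuclei share a well. In scGRO–seq single nuclei or cells prepared in that way are sorted into wells, and each well adds its own cell barcode. Compared were 10 scGRO–seq batches, each summed over its kept cells, with 4 inAGTuC libraries named Exp208_c12, Exp208_c14, Exp234_c11 and Exp261_c16 and 2 AGTuC libraries named Exp125c_c01 and Exp125c_c02. The other scGRO–seq batches of the series were left out, except for those of Exp234 and Exp261 in a fit with the experiment as a block. Both AGTuC libraries come from 1 batch, so that in every difference from AGTuC assay and batch cannot be told apart. In the wells and tubes of inAGTuC and AGTuC, fewer cells that transcribe a gene and less nascent RNA per cell cannot be told apart.

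The scGRO–seq batches held 223119 to 4923869 reads, the inAGTuC libraries 623265 to 1462003 and the AGTuC libraries 2231837 and 4755740. The 2507 kept cells had between 1177 and 51431 reads each, with a median of 3439, and batches held between 92 and 809 of them. Exp236 supplied the most cells and reads of all batches. The inAGTuC library Exp234_c11 stood apart in the strand of its reads, since 53.3% of its reads on genes that overlap no other gene were antisense, where the median of the 4 inAGTuC libraries was 28.6%. Of 8 fixed ES cell markers, 7 were measured, and their summed level ran from 43 to 138 reads per kb per 1000000 sense body reads in scGRO–seq, from 70.9 to 81.5 in inAGTuC and from 238 to 243 in AGTuC. On the same scale the 4 fibroblast markers summed to 1.72 to 19.1 in scGRO–seq, 2.29 to 3.74 in inAGTuC and 2.20 to 3.46 in AGTuC, where Col1a2 was at 0. The 4 endoderm markers ran from 0.475 to 5.72, from 1.90 to 5.76 and from 2.07 to 2.18, the 3 neural markers from 0.834 to 3.74, from 1.27 to 4.76 and from 5.34 to 6.19, and the 2 measured of 3 mesoderm markers, T being at 0 in AGTuC, were at most 1.54, 1.12 and 0.153 in the assays in that order. Whether these marker differences bear on the results below was not tested.

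The promoters of the members are described first, since reads near them are the subject of the first comparison. RefSeq lists 14 promoters of the 9 genes in its GRCm38 table, each running from 250 bases before to 50 bases after a start. Their GC content ran from 45.7 to 81.7% with a median of 64.3%, against a median of 52.7% over all 32851 promoters. Their ratio of observed to expected CpG had a median of 0.938, against 0.384 over all promoters, and 13 of 14 lay above the median of all promoters in both measures. The exception in the CpG ratio was the internal start of Mtf2, at 0.132. The letters CCAAT, searched on both strands as were all motifs here, were found in 9 of 14 promoters and in 37.4% of all promoters. The letters GGGCGG were found in 10 of 14 and in 35.7% of all. TATAAA stood in 1 member promoter, that of the second start of Jarid2, and in 13.6% of all, CCGGAAG in none of the 14 and in 8.86% of all, and the E2F letters TTTCCCGC or TTTGGCGC in those of Ezh2 and Suz12 and in 1.56% of all. A match is a description of the letters and no evidence of binding.

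The 150 bases before the start are printed for 4 of the members whose start carried a sharp AGTuC peak, as 5′ to 3′ on the strand of the gene, with matches to GGGCGG and CCAAT on either strand in capitals. They lie in GRCm38 at chr11:79992956-79993105 on the plus strand for Suz12, at chr17:34024681-34024830 on the minus strand for Ring1, at chr1:151500992-151501141 on the minus strand for Rnf2 and at chr5:122900368-122900517 on the minus strand for the internal start of Kdm2b. The Suz12 sequence holds both motifs, those of Ring1 and Rnf2 hold GGGCGG, and that of Kdm2b holds both again. Ezh2 is not printed, though its sharpest 50 bp held 47.5% of its AGTuC promoter reads, more than in Suz12, Rnf2 or Kdm2b. Its promoter holds CCAAT but no GGGCGG.
Suz12: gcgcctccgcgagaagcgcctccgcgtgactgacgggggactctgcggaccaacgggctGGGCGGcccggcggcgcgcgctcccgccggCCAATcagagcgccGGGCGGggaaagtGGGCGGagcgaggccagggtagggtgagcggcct
Ring1: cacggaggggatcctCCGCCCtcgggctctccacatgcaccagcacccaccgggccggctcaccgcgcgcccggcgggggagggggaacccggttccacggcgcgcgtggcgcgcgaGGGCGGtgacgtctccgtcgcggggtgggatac
Rnf2: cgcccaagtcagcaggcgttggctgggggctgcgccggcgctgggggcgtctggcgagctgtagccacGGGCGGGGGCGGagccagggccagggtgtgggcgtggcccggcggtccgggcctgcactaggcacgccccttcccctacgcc
Kdm2b_internal: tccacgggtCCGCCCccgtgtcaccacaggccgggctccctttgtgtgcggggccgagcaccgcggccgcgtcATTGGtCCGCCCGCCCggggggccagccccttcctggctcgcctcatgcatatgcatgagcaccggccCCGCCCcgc

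The genes differ widely in length, which sets how many reads each can collect. Jarid2 spans 190.87 kb of chromosome 13 (chr13:44730774-44921643, plus strand) and Kdm2b 118.436 kb of chromosome 5 (chr5:122870664-122989099, minus strand). Ezh2 spans 64.757 kb (chr6:47530274-47595030, minus strand), Mtf2 43.546 kb (chr5:108065674-108109219, plus strand) and Suz12 41.018 kb (chr11:79993106-80034123, plus strand). Rnf2 spans 31.594 kb (chr1:151469398-151500991, minus strand), Eed 26.323 kb (chr7:89954654-89980976, minus strand) and Cbx7 16.84 kb (chr15:79915807-79932646, minus strand). Ring1 is the shortest, with 3.889 kb (chr17:34020792-34024680, minus strand). No other curated gene overlaps any of the 9 spans. Jarid2, Mtf2 and Kdm2b have more than 1 curated start, and the innermost start of Kdm2b lies 88749 bp inside the gene. Sense reads were split into the promoter, within 500 bp of any curated start, and the body, which is the rest of the span without its last 500 bp.

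The first comparison asked how sense reads divide between promoter and body in each assay. In AGTuC the promoters of Ezh2, Eed, Suz12, Rnf2 and Kdm2b held between 15.5 and 28.9% of the reads of their gene, and in scGRO–seq the median batch had between 0.394 and 3.65%. The difference passed the test for these 5 of the 9 genes, each in the direction of a lower promoter share in scGRO–seq. Jarid2 stood apart from the other 8, with a promoter share of 2.25 and 2.29% in AGTuC. The test was limma on the region-by-assay term with both regions of each sample as a block, with Benjamini-Hochberg adjustment over 13681 genes, and 52.6% of all genes were called lower in the same contrast. A share of 5 of 9 is near that background. For how many of all genes both AGTuC libraries lie above every other sample was not counted, so such separation is given below as a description. The median log2 difference between scGRO–seq and AGTuC was -2.60 over the 9 members and -2.05 over all genes. Batches of scGRO–seq share the line and the protocol, and nothing states that they are separate cultures, so that p-values measure only the spread between these samples.

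Among the core subunits of PRC2, Ezh2, the methyltransferase, had a promoter share of 28.9% in Exp125c_c01 (80 promoter reads, 95% Wilson interval 23.9 to 34.5%) and of 27.6% in Exp125c_c02 (181 reads, 24.3 to 31.2%). Its share was 3.51, 1.90, 4.76 and 0% in the 4 inAGTuC libraries in the order given above, and in the scGRO–seq batches the lowest was 0%, the median 3.65% and the highest 6.90%. Every inAGTuC library and every scGRO–seq batch lay below both AGTuC libraries. The log2 difference in promoter against body was -3.46 (SE 0.79, limma adjusted p = 0.000353) between scGRO–seq and AGTuC and -4.02 (SE 0.93, limma adjusted p = 0.000611) between inAGTuC and AGTuC. These were the largest of the 9 genes in both contrasts. The Wilson intervals cover counting error only.

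Eed, which binds the trimethylated histone and stimulates the enzyme, had 22.9 and 18.4% of its AGTuC reads at the promoter. Its inAGTuC shares were 0, 0, 17.2 and 0.775%, and the scGRO–seq batches ran from 0% over a median of 0.394% to 20%. The groups overlapped through 1 batch, Exp264a, which had the 20%, and the inAGTuC library Exp234_c11 came near AGTuC with the 17.2%. The log2 differences were -2.81 (SE 0.81, limma adjusted p = 0.00331) for scGRO–seq and -3.38 (SE 0.94, limma adjusted p = 0.00348) for inAGTuC. The first lost the call without Exp125c_c01 (-2.62, limma adjusted p = 0.0566). Of the AGTuC reads at this promoter, 38.2% fell in the 50 bp from 450 to 499 bp after the start, a window that holds the start of the coding sequence. With a promoter of 250 bp, which counts the reads of the window as body reads, neither difference passed (limma adjusted p of 0.131 and 0.120).

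Suz12, which holds the core together, had 15.5 and 16.6% of its AGTuC reads at the promoter, 7.27, 6.20, 7.14 and 2.09% of its inAGTuC reads, and from 0 to 8.11% with a median of 3.46% in the scGRO–seq batches. No batch or inAGTuC library reached the AGTuC values. The log2 difference was -2.60 (SE 0.78, limma adjusted p = 0.00463) for scGRO–seq, lost without Exp125c_c02 (-2.53, limma adjusted p = 0.0724). The inAGTuC libraries had a log2 difference of -1.75 that did not pass (limma adjusted p = 0.0945) and that passed when all deposited reads were counted (-1.98, limma adjusted p = 0.0224).

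The accessory subunits of PRC2 showed no called difference. Jarid2, which helps to recruit PRC2 and is itself methylated by it, had promoter shares of 2.25 and 2.29% in AGTuC, of 0.45, 1.86, 4.26 and 2.43% in inAGTuC, and from 0.477 to 4.84% with a median of 2.17% in scGRO–seq. The AGTuC values lay inside the range of both other assays. The log2 differences from AGTuC were -0.06 (limma adjusted p = 0.946) for scGRO–seq and -0.15 (limma adjusted p = 0.891) for inAGTuC. Among all genes Jarid2 stood at the percentile 10.3 of pooled promoter share in AGTuC and at 29 in scGRO–seq. Mtf2, which binds unmethylated CpG islands, had 16.8 and 14.8% in AGTuC, 1.69, 8.0, 7.81 and 4.85% in inAGTuC, and from 2.08 to 13.9% with a median of 5.33% in scGRO–seq. All AGTuC values of Mtf2 were the higher ones, and yet the log2 differences of -1.44 (limma adjusted p = 0.0869) and -1.64 (limma adjusted p = 0.0974) did not pass. When only the first 500 bp after the outermost start counted as promoter, Mtf2 passed in both contrasts (-2.09, limma adjusted p = 0.0477, and -2.66, limma adjusted p = 0.0293), and with a promoter of 1000 bp it passed for scGRO–seq (-1.33, limma adjusted p = 0.0351).

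Of the PRC1 subunits, Rnf2, the main ubiquitin ligase in ES cells, had 21.4 and 24.9% of its AGTuC reads at the promoter. Its inAGTuC shares were 7.41, 1.54, 12.2 and 1.82%, and the scGRO–seq batches ran from 0 to 11.8% with a median of 0.829%. The groups did not overlap. The log2 difference was -2.83 (SE 0.77, limma adjusted p = 0.00206) for scGRO–seq, lost without Exp125c_c02 (-2.69, limma adjusted p = 0.0576). For inAGTuC it was -2.43 (SE 0.91, limma adjusted p = 0.0244), and that call was lost without any 1 of 4 libraries, namely Exp125c_c01 (-2.55, limma adjusted p = 0.0830), Exp125c_c02 (-2.28, limma adjusted p = 0.143), Exp208_c14 (-2.0, limma adjusted p = 0.0955) or Exp261_c16 (-2.09, limma adjusted p = 0.0739). It was lost as well with positions counted once (-1.85, limma adjusted p = 0.0889) and with a promoter of 250 bp (-2.20, limma adjusted p = 0.0679).

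Ring1, the paralogous ligase, has the shortest span of the 9, 3.89 kb with a body of 2.89 kb. Its promoter held 78.5 and 67% of its AGTuC reads (62 and 73 reads). In scGRO–seq it had 10 promoter and 18 body reads over all batches, and the 8 batches with any read ran from 0 to 100% with a median of 33.3%. The groups overlapped, and the log2 difference of -1.61 did not pass (limma adjusted p = 0.103). It passed with a promoter of 250 bp (-2.14, limma adjusted p = 0.0470) and when cells were kept by their UMIs alone (-1.90, limma adjusted p = 0.0419). For inAGTuC, with 6 promoter and 10 body reads over 4 libraries, it was -1.76 (limma adjusted p = 0.135).

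Kdm2b, whose zinc finger brings a variant PRC1 to unmethylated CpG islands, had 18.3 and 19.4% in AGTuC, 3.12, 2.17, 5.15 and 3.20% in inAGTuC, and from 0 to 6.32% with a median of 2.07% in scGRO–seq. All scGRO–seq batches and inAGTuC libraries lay far below AGTuC. The log2 differences were -3.16 (SE 0.73, limma adjusted p = 0.000373) for scGRO–seq and -2.52 (SE 0.84, limma adjusted p = 0.0126) for inAGTuC. The second was lost without Exp125c_c01 (-2.56, limma adjusted p = 0.0699) and without Exp125c_c02 (-2.47, limma adjusted p = 0.0946). The second was also lost with positions counted once (-1.97, limma adjusted p = 0.0563). Of the AGTuC reads in the first 300 bp after each start of Kdm2b, 4 followed the outermost start, 24 the second start 592 bp inside and 123 the innermost one, of which 46 came from Exp125c_c01 and 77 from Exp125c_c02. In scGRO–seq the same windows held 7, 4 and 1 reads. With only the first 500 bp after the outermost start as promoter, the differences turned to 1.07 (limma adjusted p = 0.301) and 0.91 (limma adjusted p = 0.440). In that setting reads at the other starts, the innermost among them, count as body reads, and the bases before the outermost start are left out.

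Cbx7, which tethers canonical PRC1 to the trimethylated histone, had 12.1 and 12.5% in AGTuC, 4.76, 0, 13 and 6.86% in inAGTuC, and from 0 to 16% with a median of 7.08% in scGRO–seq. The groups overlapped in both comparisons. The log2 differences of -1.01 (limma adjusted p = 0.294) and -1.48 (limma adjusted p = 0.186) did not pass.

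**Figure D1:**
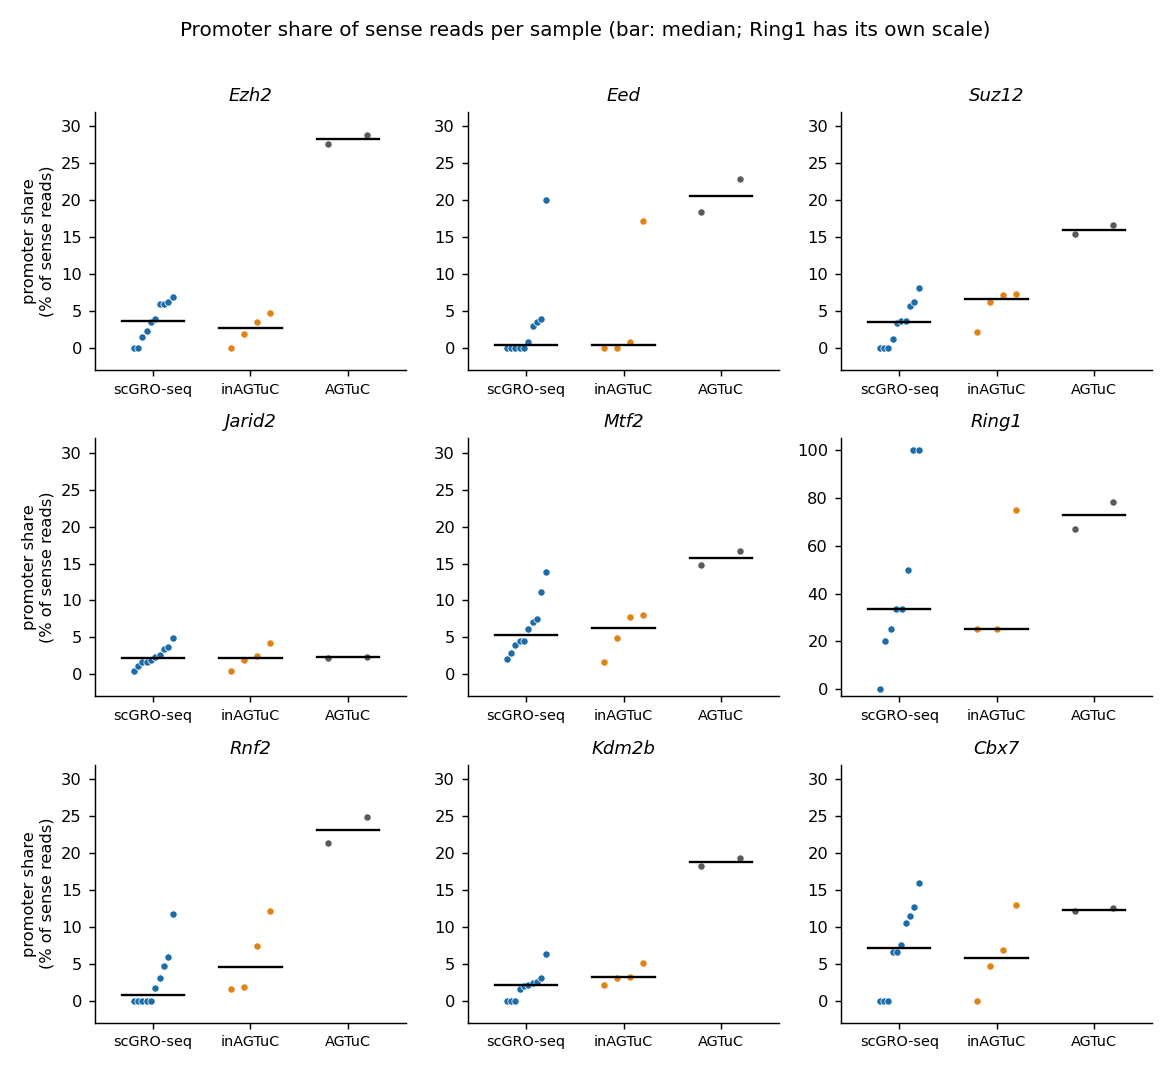
Promoter share of sense reads, in %, for each of the 9 genes, with 1 point per scGRO–seq batch (10; 8 with reads for Ring1), inAGTuC library (4; 3 for Ring1) or AGTuC library (2), points spread sideways in order of value and a bar at the median of each assay. AGTuC lies above every other sample for Ezh2, Suz12, Mtf2, Rnf2 and Kdm2b, at 28.9 and 27.6% for Ezh2, and inside the range of the other assays for Jarid2, at 2.25 and 2.29%. The share of all genes with such a separation was not counted.

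The inAGTuC libraries thus had a lower promoter share than AGTuC for 4 of 9 genes, Ezh2, Eed, Rnf2 and Kdm2b, against 45.7% of all genes called lower. The median log2 difference was -1.76 over the members and -2.14 over all genes. Between scGRO–seq and inAGTuC limma called 0 of 13681 genes (0%), with 653 at an unadjusted p under 0.05, and limma-trend called 0 as well, with 598. The members' log2 differences between those assays ran from -0.85 for Suz12 to 0.57 for Eed. Of 88 shares of a gene in a scGRO–seq batch with reads, 22 were 0, on 1 to 124 reads with a median of 21. The deepest was Ezh2 in Exp260b with 0 of 124 reads, for which the 95% Wilson interval reaches 3.00%, while for 0 of 14 reads of Eed in Exp156 it reaches 21.5%. Summed over the 9 genes, the promoters held 1.74 to 5.94% of sense reads in scGRO–seq, 2.37 to 6.92% in inAGTuC and 12.8 and 12.3% in AGTuC. Without Jarid2 the AGTuC values were 21.2 and 19.8%.

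The AGTuC reads at these promoters were concentrated in short stretches. The most-read 50 bp window held 47.5% of the promoter reads of Ezh2, from 25 to 74 bp after the start, with 34 reads in Exp125c_c01 and 90 in Exp125c_c02. It held 51.9% for Ring1, from 50 to 99 bp, and 43.3% for Rnf2, from 200 to 249 bp. The window of Suz12 was the first 50 bp after the start and held 39.6%, and that of Kdm2b ran from 26 to 75 bp after the innermost start and held 42.6%. Those of Mtf2, from 100 to 149 bp, and of Cbx7, the first 50 bp, held smaller parts, 22 and 16.5%. In Jarid2 it lay from 103 to 152 bp after the second start and held 30.5%, with 9 of 38 promoter reads in Exp125c_c01 and 27 of 80 in Exp125c_c02. All 9 windows lay in exons, and 8 of them held no coding base. In the same windows scGRO–seq had between 0 and 13 reads summed over all batches, with 0 for Suz12, Ring1, Rnf2 and Kdm2b, and the 13 were those of Jarid2. Its promoter reads numbered only 9 in Rnf2 to 166 in Jarid2. The windows were chosen by their AGTuC reads, which favours AGTuC in this count. The most-read windows of the other assays, and those of all genes, were not searched.

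Reads on the opposite strand within 1 kb before the outermost start formed part of the same pattern in AGTuC. Ezh2 had 198 of them, Suz12 193, Jarid2 145 and Ring1 113, and the other 5 genes between 19 and 69. In scGRO–seq no member had more than 16, summed over all batches. Ezh2 and Kdm2b each face another gene head to head, so that reads of the neighbour can be among them.

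**Figure D2:**
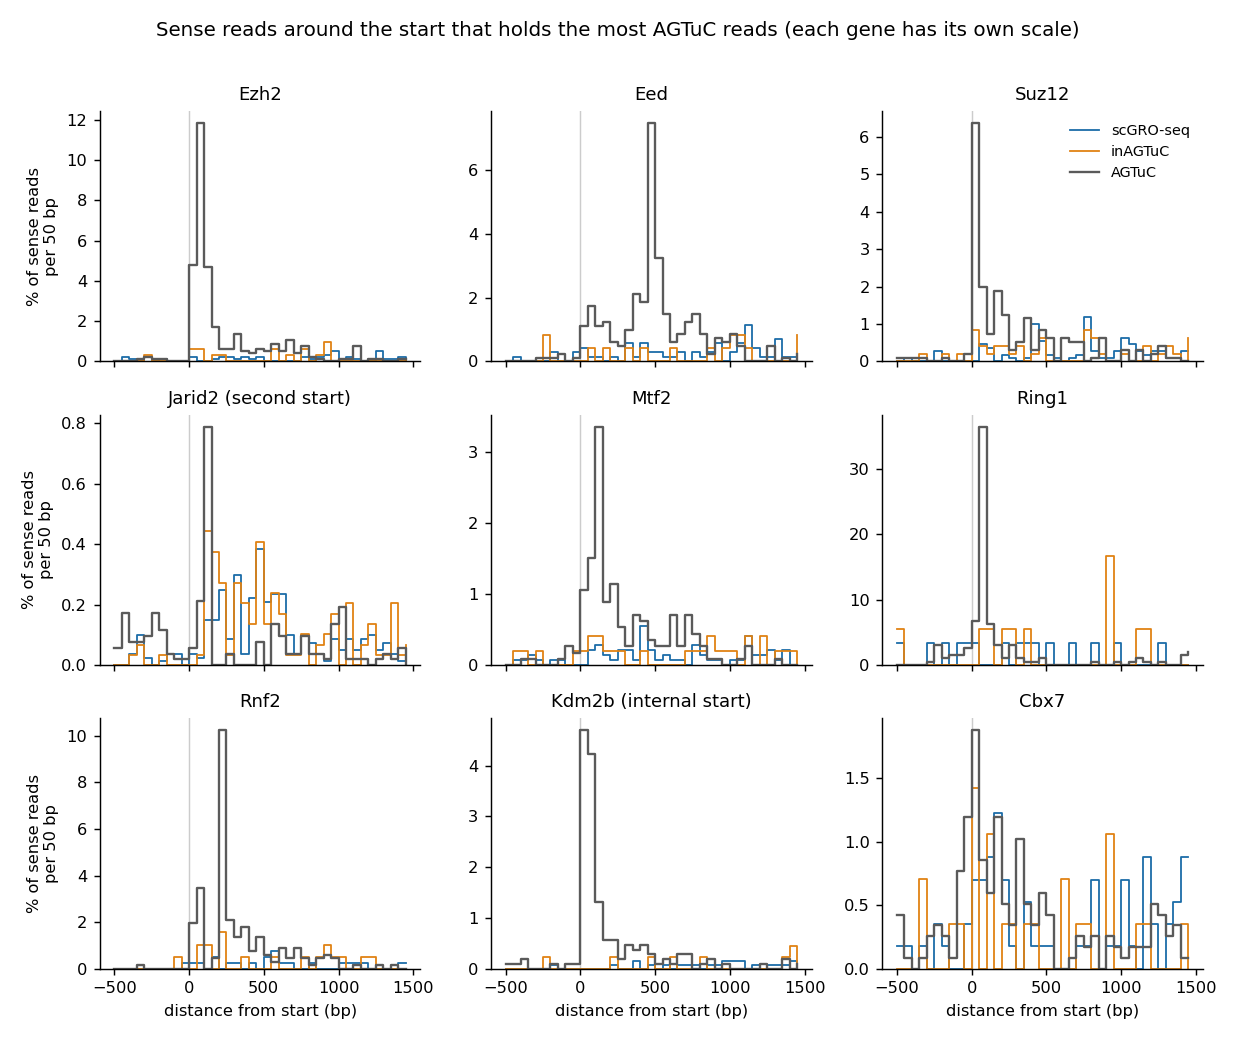
Sense reads around the curated start that held the most AGTuC reads, in % of the sense reads of the gene per 50 bp bin, summed over the samples of each assay, each gene on its own scale. AGTuC peaks within 250 bp of the start in 8 genes, and in Eed between 450 and 499 bp, and no bin of scGRO–seq or inAGTuC reaches the highest AGTuC bin of its gene.

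The second comparison was of the level of elongating polymerase, as sense body reads per kb per 1000000 sense body reads of the sample (body level). All members had sense body reads in scGRO–seq, though Ring1 had only 18, beside 13 antisense ones, so that its level there is uncertain. Jarid2, at 8.43 ± 2.39 (SD, n = 10 batches), stood at the percentile 98.2 of 14672 genes, and Cbx7 was at 8.0 ± 2.24 (percentile 98.0), Mtf2 at 6.24 ± 1.66 (96.8), Suz12 at 5.48 ± 1.10 (96.0) and Eed at 4.93 ± 1.89 (94.9). A lower set was formed by Rnf2 at 2.90 ± 1.17 (84.6), Ezh2 at 2.79 ± 0.816 (83.4), Kdm2b at 2.17 ± 0.517 (74.4) and Ring1 at 1.53 ± 1.94 (59.9). Their order at the top is not settled, since Jarid2 had 7.65 ± 2.40 (SD, n = 10), below Cbx7, without 2 sites in the gene that are described further on. The ranges over batches overlapped for every pair of neighbours in this order, and only the step from Eed to Rnf2 was larger than the SD of both. The median over all genes was 1.20, and 120 olfactory receptor genes, which ES cells do not express, had 0.110. The same 120 genes had 0.121 in inAGTuC and 0.000817 in AGTuC. The part of this background in the differences from AGTuC was not tested.

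Cbx7 and Rnf2, both of PRC1, had lower body levels in scGRO–seq than in AGTuC, and Cbx7 also in inAGTuC. Ring1 was called lower in both contrasts too, but it passed the minimum of 50 body reads only through the 53 reads of AGTuC, with 18 in scGRO–seq and 10 in inAGTuC, so that its calls add nothing to the counts. None of the 5 subunits of PRC2, nor Kdm2b, passed the test. By limma with adjustment over 14672 genes, 3 of 9 members were called lower and 0 higher between scGRO–seq and AGTuC, or 2 of 8 leaving Ring1 out. Of all genes, 28.3% were called lower and 21.2% higher. The 2 of 8 are near that background and are not read as a difference between PRC1 and PRC2. The median log2 difference of the 9 was -0.23, and that of all genes -0.24. Under scaling by the median of ratios the median of all genes moved by 0.26 and the share of higher genes among all calls went from 42.8 to 56.3%, and under scaling to all reads the median moved by -0.24, so that these differences are relative to the scaling chosen.

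Cbx7 had a body level of 17.4 and 18.8 in AGTuC, of 5.38, 12.7, 6.96 and 8.56 in inAGTuC and from 5.48 over a median of 7.72 to 12.3 in scGRO–seq. No scGRO–seq or inAGTuC sample reached AGTuC, and for how many of all genes this holds was not counted. The log2 differences were -1.30 (SE 0.24, limma adjusted p = 0.000245) and -1.13 (SE 0.28, limma adjusted p = 0.00460), and the second was lost without Exp125c_c02 (-1.07, limma adjusted p = 0.0791).

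Ring1 had 5.58 and 5.72 in AGTuC, 0, 0.784, 4.88 and 1.48 in inAGTuC, and in scGRO–seq from 0, in 4 of 10 batches, over a median of 1.06 to 5.47. No sample of the other assays reached AGTuC, and their values rest on between 0 and 6 reads per sample. The log2 difference was -1.82 (SE 0.48, limma adjusted p = 0.00358) for scGRO–seq and -1.73 (SE 0.62, limma adjusted p = 0.0355) for inAGTuC. The second was lost without any 1 of Exp125c_c01 (-1.73, limma adjusted p = 0.0871), Exp208_c12 (-1.41, limma adjusted p = 0.105), Exp208_c14 (-1.54, limma adjusted p = 0.0938) and Exp261_c16 (-1.73, limma adjusted p = 0.0723). It was also lost under the median of ratios (-1.57, limma adjusted p = 0.0586). With limma-trend, neither difference of Ring1 passed (limma adjusted p of 0.0952 and 0.224), and without Exp125c_c02, which holds 36 of the reads, the gene fell under the minimum and was not tested. With no minimum of reads both differences passed.

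Rnf2 had 4.55 and 5.29 in AGTuC, 3.48, 4.73, 2.76 and 2.52 in inAGTuC and from 1.05 over a median of 2.71 to 5.16 in scGRO–seq. The groups overlapped, through the batch Exp156 and the inAGTuC library Exp208_c14. The log2 difference was -0.96 (SE 0.29, limma adjusted p = 0.00945), lost without Exp125c_c02 (-0.84, limma adjusted p = 0.145), under the median of ratios (-0.70, limma adjusted p = 0.0522) and with limma-trend (limma adjusted p = 0.136). The inAGTuC difference of -0.61 did not pass (limma adjusted p = 0.160).

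The PRC2 subunits had no called difference in body level with all samples included. Ezh2 had 2.93 and 3.41 in AGTuC, 3.68, 3.66, 2.21 and 1.95 in inAGTuC and 1.42 to 3.90 with a median of 2.79 in scGRO–seq. Suz12 had 5.57 and 6.40 in AGTuC, 5.43, 6.84, 3.05 and 8.35 in inAGTuC and 3.69 to 7.55 with a median of 5.47 in scGRO–seq. In both genes the AGTuC values lay inside the ranges of the other assays. Eed had 7.45 and 7.88 in AGTuC, 6.06, 3.84, 2.22 and 7.22 in inAGTuC and 2.66 to 8.93 with a median of 4.59 in scGRO–seq. Its log2 difference of -0.66 for scGRO–seq did not pass (limma adjusted p = 0.0768) but did without Exp234_c11 (-0.66, limma adjusted p = 0.0479) or without Exp261_c16 (-0.66, limma adjusted p = 0.0500), and that of -0.78 for inAGTuC passed without Exp261_c16 (-1.10, limma adjusted p = 0.0271).

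Jarid2 had 8.25 and 8.26 in AGTuC, 4.93, 5.68, 3.35 and 14.2 in inAGTuC and 4.15 to 11.5 with a median of 9.14 in scGRO–seq. The 14.2 belongs to Exp261_c16, and without that library the log2 difference of -0.41 between inAGTuC and AGTuC became -0.87 and passed (limma adjusted p = 0.0489). Mtf2 had 6.46 and 7.39 in AGTuC, 5.95, 5.01, 3.33 and 8.76 in inAGTuC and 3.77 to 8.44 with a median of 6.18 in scGRO–seq. Kdm2b, of variant PRC1, had 2.49 and 2.21, 1.14, 1.76, 1.86 and 2.61, and 1.24 to 2.67 with a median of 2.36. The AGTuC values of Mtf2 and Kdm2b lay inside the ranges of scGRO–seq and inAGTuC, and none of their differences passed.

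**Figure D3:**
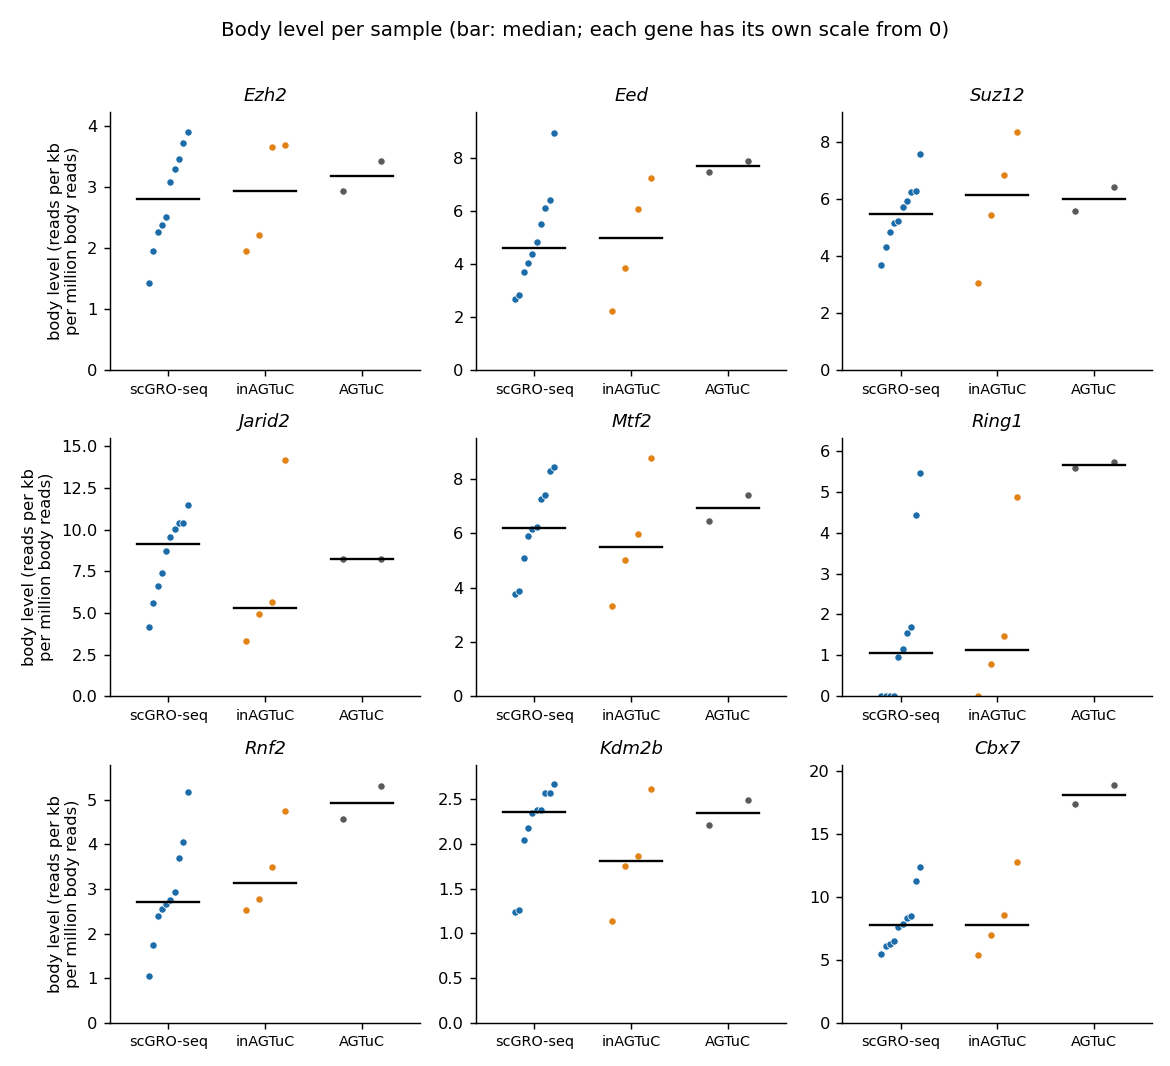
Body level, in reads per kb per 1000000 sense body reads, for each of the 9 genes, with 1 point per scGRO–seq batch (10), inAGTuC library (4) or AGTuC library (2), points spread sideways in order of value, a bar at the median of each assay and each gene on its own scale from 0. Cbx7 in AGTuC, at 17.4 and 18.8, lies above all other samples, Ring1 reads 0 in 4 scGRO–seq batches, and Eed in AGTuC, at 7.45 and 7.88, lies above the inAGTuC libraries but within the range of the scGRO–seq batches.

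Between inAGTuC and AGTuC the 2 genes called lower of 9, or 1 of 8 leaving Ring1 out, compare with 15% of all genes called lower and 18.1% called higher. A count of 1 of 8 is near the 15%. The median log2 difference was -0.41 over the members and -0.12 over all genes. Between scGRO–seq and inAGTuC limma called 0 of 14672 genes (0%), with 780 at an unadjusted p under 0.05 and 0 calls by limma-trend, which had 512. Without Exp261_c16 limma called 38, none of them a member. Member differences between those assays ran from -0.35 for Rnf2 to 0.36 for Jarid2 on the log2 scale. With the experiment as a block, over the 3 experiments that hold both assays (Exp208, Exp234 and Exp261), limma called 66 of 8981 genes, none of them a member. The 8 members tested there had log2 differences from -0.86 for Eed to -0.15 for Kdm2b, with limma adjusted p from 0.566 to 0.899. Within Exp208, scGRO–seq minus the mean of the inAGTuC libraries was 0.09 for Ezh2, -0.76 for Eed, 0.31 for Suz12, 0.08 for Jarid2 and 0.63 for Mtf2. It was -0.28 for Ring1, -0.54 for Rnf2, -0.16 for Kdm2b and 0.57 for Cbx7. The pair of inAGTuC libraries of that batch differed from each other by up to 1.21, in Cbx7.

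Together the 9 genes took 0.177 to 0.365% of all sense body reads in scGRO–seq, 0.152 to 0.422% in inAGTuC and 0.315 and 0.328% in AGTuC. Exp261_c16 had the highest of these shares and Exp234_c11 the lowest. Jarid2 supplied 43.1 to 59.5% of the members' reads in scGRO–seq batches, 41.8 to 63.8% in inAGTuC and 49.6 and 47.7% in AGTuC.

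Over the scGRO–seq batches, the third comparison, Jarid2 had the smallest adjusted p of the members, though not the widest distance between batches. It held 7887 body reads in scGRO–seq, against 373 to 1354 for the other members tested. It ranged from a body level of 4.15 in Exp211 and 5.60 in Exp208 to 11.5 in Exp260. Over 35 libraries with at least 24 kept cells, a moderated F test of limma over batches gave an adjusted p of 1.58e-07, with a log2 distance of 1.48 between the lowest and the highest batch, and Jarid2 passed under every alternative tried. Mtf2 (limma adjusted p = 0.0172, distance 1.19), Eed (limma adjusted p = 0.0349, distance 1.83), Ezh2 (limma adjusted p = 0.0364, distance 1.42) and Rnf2 (limma adjusted p = 0.0372, distance 2.25) passed as well. The calls of these 4 were lost under several alternatives. Ezh2 did not pass without Exp236 (limma adjusted p = 0.153) or Exp263 (limma adjusted p = 0.222), nor under the median of ratios (limma adjusted p = 0.172), with no minimum of reads (limma adjusted p = 0.0622) or with positions counted once (limma adjusted p = 0.0559). Mtf2 did not pass without Exp156 (limma adjusted p = 0.0653), Exp236 (limma adjusted p = 0.246), Exp263 (limma adjusted p = 0.0650) or Exp264a (limma adjusted p = 0.0729), nor under the median of ratios (limma adjusted p = 0.0680).

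Eed did not pass without Exp208 (limma adjusted p = 0.0647), Exp211 (limma adjusted p = 0.0961), Exp236 (limma adjusted p = 0.0940), Exp260b (limma adjusted p = 0.0575) or Exp263 (limma adjusted p = 0.0501), with no minimum of reads (limma adjusted p = 0.0734) or with cells kept by their UMIs alone (limma adjusted p = 0.105). Rnf2 did not pass without Exp156 (limma adjusted p = 0.139), Exp160 (limma adjusted p = 0.0613) or Exp264a (limma adjusted p = 0.178), with no minimum of reads (limma adjusted p = 0.0568) or with all deposited reads (limma adjusted p = 0.0922). Kdm2b (limma adjusted p = 0.185), Cbx7 (limma adjusted p = 0.210) and Suz12 (limma adjusted p = 0.385) did not pass, and Ring1, with 18 reads, was not tested. Scaled to all reads of the library, 7 of 8 members and 4937 genes (42.5%) passed, with Suz12 (limma adjusted p = 0.0272) and Kdm2b (limma adjusted p = 0.0335) among them, and Kdm2b passed with all deposited reads too (limma adjusted p = 0.0411). The 5 of 8 called compare with 30.2% of all 11622 genes, a share that was not matched for reads per gene. The median distance between the lowest and the highest batch was 1.38 over these 8 genes and 2.01 over all genes. Exp208 and Exp211 were the lowest batches for Kdm2b too, at 1.27 and 1.24, while Exp208 was the highest for Cbx7, at 12.3, Mtf2, at 8.44, Suz12, at 7.55, and Ezh2, at 3.90. Batches differed in reads per cell, with medians from 1864 in Exp156 to 4213 in Exp236, and the part of depth in these differences was not tested. Plates of 1 batch may hold the same nuclei, so that the test measures the spread between plates.

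Along the genes the reads were spread unevenly in ways that differed between members. In Jarid2 the first 1 of 5 equal parts of the span held 31.9% of the scGRO–seq body reads, 31.9% of the inAGTuC reads and 25.1% of the AGTuC reads. The log2 ratio of the first part over the last was 0.67 ± 0.33 (SD, n = 10), 0.53 ± 0.41 (n = 4) and 0.19 ± 0.04 (n = 2), and the first was the higher in each of the 16 samples. Cbx7 leaned the other way, with log2 ratios of -0.59 ± 0.43 (SD, n = 8), -0.93 ± 0.31 (n = 4) and -0.87 ± 0.04 (n = 2), and the last part was the higher in every sample with enough reads. In Eed, AGTuC had 33.1% in the first part, where scGRO–seq had 19.6% and inAGTuC 16%. The most-read 50 bp of the AGTuC body of Eed lay 0.5 kb from the start, with 26 of 634 reads. It adjoins the AGTuC promoter peak at 450 to 499 bp. How far this peak enters the first part and the body level of Eed was not tested. In Kdm2b the fourth part, which holds the internal start, had 32% in scGRO–seq, 29.2% in inAGTuC and 17.4% in AGTuC. The level after over that before the internal start was 1.44 ± 0.93 (SD, n = 10) in scGRO–seq, 1.17 ± 0.46 (n = 4) in inAGTuC and 1.14 ± 0.07 (n = 2) in AGTuC, so that no step larger than the spread was seen outside AGTuC. For Mtf2, whose internal start lies 12491 bp inside, the same ratio was 0.786 ± 0.118, 0.539 ± 0.104 and 0.747 ± 0.167.

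Exons held more of the body reads in scGRO–seq and inAGTuC than in AGTuC in the 8 members other than Ring1. For Suz12 it was 20.1, 19.9 and 9.46% in the 3 assays in that order, where exons make up 8.44% of the body length. For Mtf2 it was 19.7, 21.1 and 9.66% of reads on 10.1% of the length, and for Jarid2 10.5, 9.83 and 4.05% on 2.64%. Cbx7 had 28.1, 29.5 and 19.5% on 13.9%, and Rnf2 12.9, 12.3 and 9.80% on 10.4%. Ezh2 had 8.03, 7.54 and 3.73% on 3.45%, so that in AGTuC its share was close to that of the length, as it was for Suz12, Mtf2 and Rnf2. These are pooled shares given as a description.

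Antisense reads within the bodies were scarce in AGTuC and common in the other assays. Per member, the median antisense share of body reads ran from 10.1% in Suz12 to 27.5% in Kdm2b in scGRO–seq, leaving out Ring1 with 35% of few reads, and from 13.3 to 34.8% in inAGTuC. In AGTuC it ran from 0.223% in Mtf2 to 4.45% in Cbx7, except for Kdm2b, with 15.6%. Genes that overlap no other gene had medians of 32.3, 28.6 and 12.7% in the 3 assays, so that most members lay below them.

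Jarid2 had 2 sites on its antisense strand where reads of low mapping score piled up, and these sites are left out of the shares just given. In 600 bp each, they held 4256 and 10552 of the 16935 antisense reads on the gene in scGRO–seq, 203 and 496 of 1295 in inAGTuC and 0 and 287 of 389 in AGTuC. The scGRO–seq batches differed widely. The first site held 0 reads in 4 of 10 batches, Exp156, Exp160, Exp208 and Exp211, and up to 1117 in Exp260. Of the reads at the second site, 6484 (61.4%) came from Exp264a alone, without which 4068 remained, and each of the other batches held 47 to 1490. The most-read 50 bases of each are printed in capitals within 150 bases of the antisense strand. The first lies in GRCm38 at chr13:44796124-44796273 on the minus strand and the second at chr13:44869574-44869723 on the minus strand, both inside Jarid2 and opposite to it.
Jarid2_first: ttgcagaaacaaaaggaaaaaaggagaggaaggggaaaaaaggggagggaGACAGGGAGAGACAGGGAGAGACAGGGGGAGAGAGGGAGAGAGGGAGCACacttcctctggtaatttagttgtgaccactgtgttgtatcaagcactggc
Jarid2_second: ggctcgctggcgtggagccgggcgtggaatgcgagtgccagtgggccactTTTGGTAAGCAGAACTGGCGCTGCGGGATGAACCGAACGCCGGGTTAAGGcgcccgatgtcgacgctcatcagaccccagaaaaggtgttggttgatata

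The capitals of the first are a repeat rich in G and A. Of the 24 pieces of 25 bases that make up each site, 1 of the first and 19 of the second recur elsewhere in the genome, the latter on 21 chromosomes. Reads there had median mapping scores of 16 and 12, where other sense reads on members had 42. Whether the reads at either site stem from Jarid2 was not tested. On the sense strand the second site held 339 reads in scGRO–seq, which was 4.56% of the sense reads of Jarid2 in the median batch and 37.6% in Exp160. Without both sites the body level of Exp160 was 6.38 in place of 10.4, and those of the other batches moved by less than 1.5 times. In inAGTuC it held 4.56 to 22.3% and in AGTuC 0.260 to 0.480%. Leaving out both sites, an alternative chosen after the data were seen, changed no call of Jarid2 in any comparison.

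**Figure D4:**
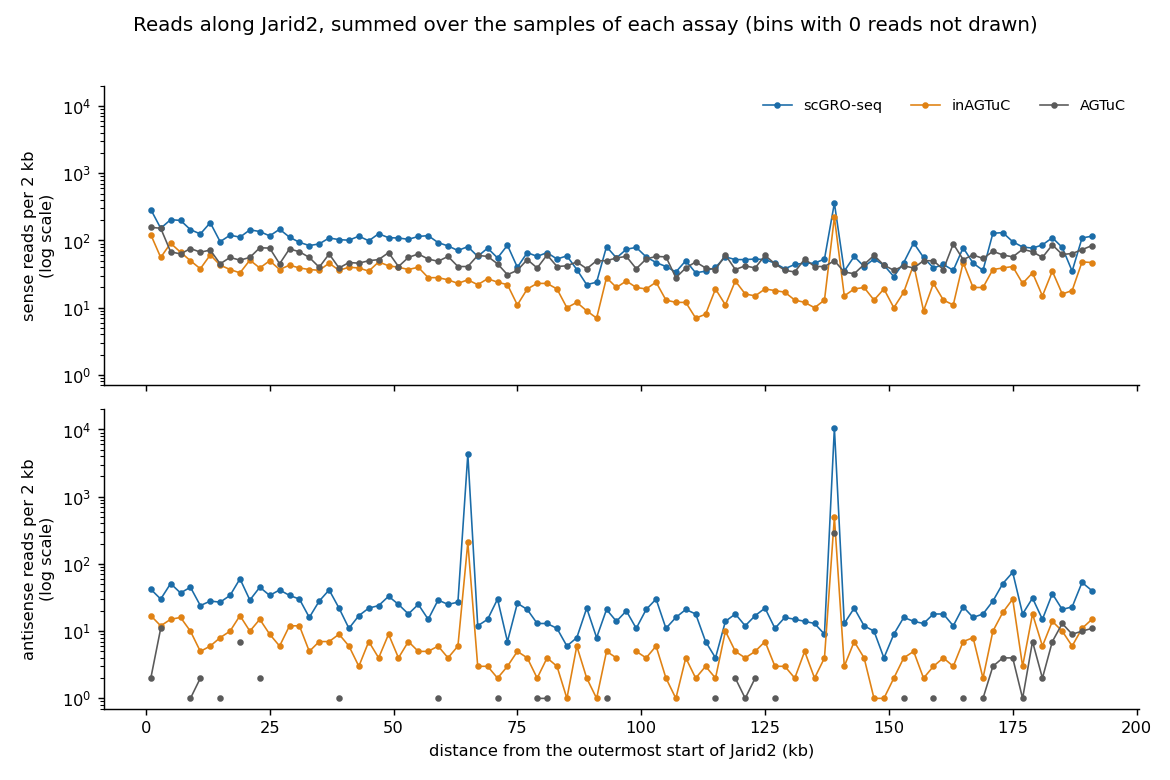
Sense (top) and antisense (bottom) reads per 2 kb bin along Jarid2 by distance from its outermost start in kb, summed over the samples of each assay on a log axis, bins without reads not drawn. Sense reads run along the whole gene, with 31.9% of the scGRO–seq body reads in the first of 5 equal parts, 12.4% in the third and 18.5% in the last, and 2 antisense bins, in scGRO–seq with 4256 and 10552 reads at the sites within them, stand far above the rest.

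The fourth comparison was made in single cells. Jarid2 had at least 1 sense body read in 2146 of 2507 cells, or 85.6% (95% Wilson interval 84.2 to 86.9%), and in 82.6 ± 10.1% per batch (SD, n = 10). Mtf2 followed with 894 cells (35.7%, 33.8 to 37.6%), Kdm2b with 842 (33.6%, 31.8 to 35.5%), Suz12 with 747 (29.8%, 28 to 31.6%) and Ezh2 with 657 (26.2%, 24.5 to 28%). Eed was read in 525 cells (20.9%, 19.4 to 22.6%), Cbx7 in 435 (17.4%, 15.9 to 18.9%), Rnf2 in 327 (13%, 11.8 to 14.4%) and Ring1 in 17 (0.678%, 0.424 to 1.08%). The intervals cover counting error only, and the pooled shares lean on Exp236, which supplied 809 cells. Eed and Cbx7 change places as means over batches, with 16.8 ± 6.60% and 17.3 ± 4.87% (SD, n = 10). The order is not that of the levels per kb, since a longer body collects more reads, as with Kdm2b, which is the eighth by level and the third by cells. Shares over batches had SDs from 4.72 points for Rnf2 to 11.7 for Mtf2, leaving out Ring1. The median of UMIs per kept cell ran from 1864 to 4213 over the batches, and its part in these shares was not tested.

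For no member did the number of cells with 2 or more reads on the gene pass the test against reads permuted among the cells of their library. Jarid2 had 1653 such cells where 1640 were expected (range of 1000 permutations 1596 to 1694, p = 0.172 by exact sign flips of the 10 batches, two-sided as for all members). Among the core subunits it was 164 for Ezh2 with 156 expected (exact p = 0.455), 101 for Eed with 98.6 expected (exact p = 0.635) and 202 for Suz12 with 199 expected (exact p = 0.604). Cbx7 had the smallest p, with 61 cells where 55.5 were expected, above expectation in 7 of 10 batches (exact p = 0.0859). Mtf2 (274 with 285 expected, exact p = 0.271) and Kdm2b (228 with 233 expected, exact p = 0.564) lay below expectation, and Rnf2 had 40 with 37.3 expected (exact p = 0.758). Ring1 had 1 such cell and was not tested. The smallest p that 10 batches allow is 0.00195. With adjustment over 11428 genes, a gene can pass only if many genes reach p-values near that smallest one together. That 0 of 11428 genes passed the exact sign-flip test after adjustment (0%) is therefore largely set by the number of batches. Before adjustment 770 genes, or 6.74%, had a p under 0.05 by that test, none of them a member. The ratio of observed to expected cells had a median of 1.07 over all genes, and that of the members ran from 0.962 for Mtf2 to 1.10 for Cbx7. Counting only cells whose reads span at least 50 bp turned the median over all genes to 0.980 and left 2 of 8 members above expectation in place of 6, while counting only the 10 kb after the first 500 bp raised that median to 1.18. No member passed under these or any other alternative tried.

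**Figure D5:**
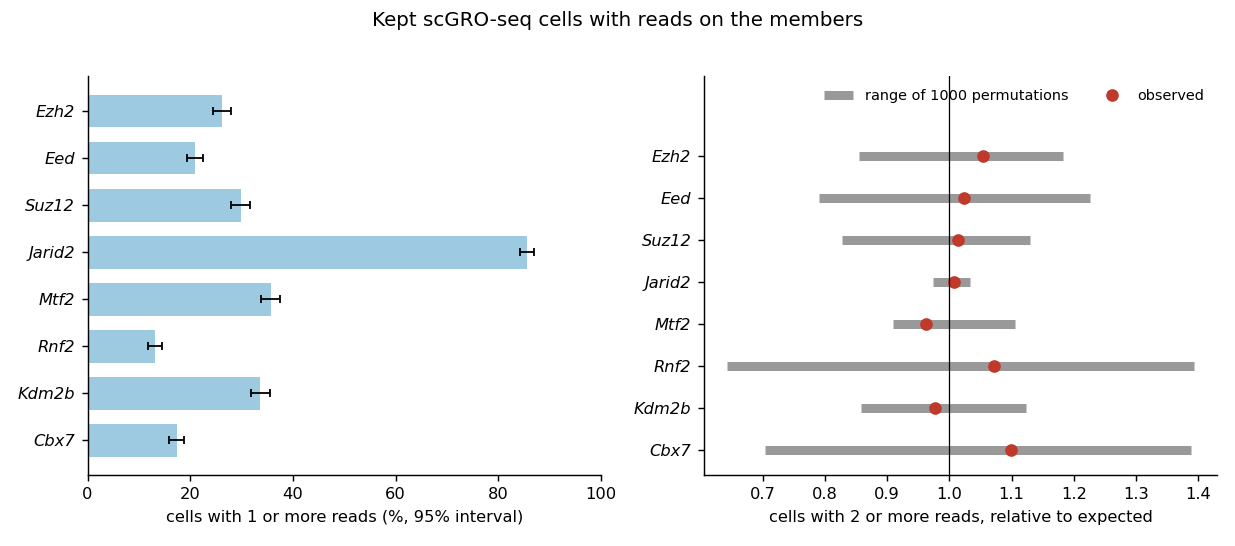
Left, share of the 2507 kept scGRO–seq cells with 1 or more sense body reads on each gene, in %, as bars with 95% Wilson intervals. Right, number of cells with 2 or more reads over the number expected, as points, with the range of 1000 permutations within library as grey bars and a line at 1. Jarid2 reaches 85.6% on the left, and all points lie inside their bars on the right. Ring1, with 17 cells, is not drawn.

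Pairs of members read in the same cell were compared with permuted reads in the same way. Of 28 pairs with enough reads, the ratio of observed to expected cells had a median of 0.974 and ran from 0.899 to 1.03. It was above 1 for 2 pairs, Rnf2 with Cbx7 (81 cells, 78.3 expected) and Mtf2 with Rnf2 (165 cells, 164 expected). These are 7.14% of the member pairs, where 23526973 of 58866860 pairs of all genes (39.97%) were above 1. Over all pairs the median was 0.969, and the central 95% lay between 0.555 and 1.40. Over the 10284592 pairs whose expected cells lay within the range of the member pairs the median was 0.975, 32.4% were above 1 and the central 95% lay between 0.847 and 1.10. These ratios are given as a description without a test.

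Of the other Polycomb genes a list of 35 was set. For promoter against body, 18 of 34 tested were lower in scGRO–seq than in AGTuC, against 52.6% of all genes, and none higher, with a median log2 difference of -1.92, close to that of all genes. Of the 34, 7 (Bcorl1, Cbx2, Ezh1, Pcgf1, Phc3, Phf1 and Yaf2) reached the minimum of 10 promoter and 10 body reads only through AGTuC, and without them 13 of 27 were lower. The shares over all genes were not limited in that way. The largest differences among the 27 were those of Pcgf5 (-4.77), a PRC1 subunit, Auts2 (-4.67), its partner in a variant PRC1, Bmi1 (-4.33), a PRC1 subunit, and Lcor (-4.04), linked to PRC2, all by limma. In inAGTuC 13 of 34 were lower, against 45.7% of all genes, and none higher. Without the 7 genes it was 8 of 27, led by Bmi1 (-6.21), Pcgf5 (-5.06) and Lcor (-3.94). Bmi1 had 0 promoter reads in inAGTuC and 4 body reads in AGTuC, so that both its log2 differences rest on few reads. Bodies differed in both directions, with 12 of 31 called between scGRO–seq and AGTuC. Of these 3 were higher, against 21.2% of all genes, among them Pcgf5 (1.82) and Auts2 (1.69). The other 9 were lower, against 28.3% of all genes, among them Cbx6 (-2.06) and Cbx2 (-1.67). Phf1 (-2.54), a PRC2 accessory subunit, is counted among the 9 but reached the minimum of 50 body reads only through the 77 of AGTuC, with 17 in scGRO–seq and 19 in inAGTuC, and without it 8 of 30 were lower. In inAGTuC 2 of 31 were higher, Pcgf5 (1.68) and Auts2 (1.65), against 18.1% of all genes, and 4 lower, against 15%, with Cbx6 (-1.88), Epop (-1.69) and Bap1 (-1.35) the largest. Between scGRO–seq and inAGTuC limma called none of them in either comparison. Over the batches 11 of 29 were called, against 30.2% of all genes, with the largest distances in Pcgf2 (2.70), E2f6 (2.66), Cbx6 (2.12), Bcor (2.07) and Phc3 (1.87).

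The genes whose log2 body level followed the mean of the 9 members most closely over the 35 scGRO–seq libraries were Arid1a, a subunit of the BAF chromatin remodeller, with Pearson's r of 0.828, Mkrn1, a ubiquitin ligase, with 0.792, and Pole, a DNA polymerase subunit, with 0.763, out of 11614 genes ranked. The libraries share their depth between genes, so that these values are a description.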

How the data were processed

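The deposited files are 1 list of reads per library, 82 in all, on the mm10 build, which is GRCm38. Per the labels, the authors trimmed reads with cutadapt, mapped them with Bowtie2 and removed duplicates by UMI with UMI-tools, with versions not given in the sources used here. The only deposited value is a mapping score per read, so counts of reads were made here. The plate, cell barcode and strand come from each entry. The RNA strand is opposite to that of the entry, and the polymerase position is its 5′ end. Molecules found in more than 1 library were left out (0.245 to 47.4% of reads per library, median 22.2%). The list of Exp261_c16 was deposited as both inAGTuC and scGRO–seq, with 99.7% of molecules in common, and served as inAGTuC only.

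Cells were kept with at least 1000 UMIs and 750 genes, in 35 of 53 libraries with at least 24 such cells, and no doublet caller was run on the sorted cells. Genes are RefSeq GRCm38 spans with at least 0.5 kb of body. Reads within 10 bp of small RNA genes were left out. Tests were limma 3.58.1 in R 4.3.3 on voom weights, which add 0.5 to each count, for genes with at least 50 body reads, or at least 10 promoter and 10 body reads. Benjamini-Hochberg adjustment ran over all genes, with a threshold of 0.05. Cells were tested for genes read in at least 50 cells with Python 3.11.15, numpy 2.4.6, pandas 2.3.3 and scipy 1.17.1, and figures were drawn with matplotlib 3.10.9.

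The depth per sample limits precision. In data simulated at these depths, limma recovered 31% of 2-fold and 95% of 4-fold rises in body level of scGRO–seq over AGTuC. It recovered 37 and 97% over inAGTuC and 14.1 and 87% between batches. For promoter against body of scGRO–seq over AGTuC it was 1.01 and 16%, with promoter reads raised in scGRO–seq and inAGTuC alike. The simulated spread was the same for every gene. The differences called for members in promoter against body were falls, and these shares do not tell how often such falls are found. Alternatives covered the experiment as a block, the fit, the scaling, the minimum of reads, the promoter window, the cell filter, shared and repeated reads and leaving out each sample. All 9 members are named, with at most 5 other Polycomb genes per test, those called with the largest log2 difference, and the 3 genes most like the members. The members and the lists were chosen with earlier results of these data known.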

Additional observations from a re-analysis of the deposited data

Results flagged for a closer look

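Body levels, promoter shares, shares of cells and shares of reads at the Jarid2 sites were searched for samples that stand far from the rest of their group, in 47 groups. The rule was Dixon's ratio, the gap to the next value over the whole range. Its limits set about 1 in 20 groups apart by chance if values are normally distributed, which was not tested. The 4 found were all promoter shares. Eed in the scGRO–seq batch Exp264a had a promoter share of 20%, with the next batch at 3.85%. Rnf2 in Exp260 had 11.8%, with the next at 5.88%, and Kdm2b in Exp263 had 6.32%, with the next at 3.03%. Eed in the inAGTuC library Exp234_c11 had 17.2%, with the next library at 0.775%. These shares rest on 8, 2, 6 and 5 promoter reads.

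The share of promoter reads differed between assays by the test of the difference itself in 9 cases, all lower than in AGTuC. By limma the log2 differences in promoter against body for scGRO–seq were -3.46 for Ezh2, -2.81 for Eed, -2.60 for Suz12, -2.83 for Rnf2 and -3.16 for Kdm2b. For inAGTuC they were -4.02 for Ezh2, -3.38 for Eed, -2.43 for Rnf2 and -2.52 for Kdm2b. Both contrasts share the AGTuC libraries.

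Outside the sense reads that the comparisons use, scGRO–seq held 4256 antisense reads at the first and 10552 at the second of 2 sites in Jarid2, where AGTuC held 0 and 287. In 4 of 10 scGRO–seq batches the first site also held 0, and without Exp264a the second held 4068. Reads at these sites had median mapping scores of 16 and 12, and whether they stem from Jarid2 was not tested.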

How the results depend on the processing

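For promoter against body, the called members numbered 3 to 5 (of 5) for scGRO–seq and 2 to 4 (of 4) for inAGTuC when 1 sample was left out, with 2938 to 7600 and 2332 to 6842 genes called. For inAGTuC it was 2 with positions counted once (Rnf2 and Kdm2b lost) and 2 with a promoter of 250 bp (Eed and Rnf2 lost). Kdm2b reversed, to 1.07 and 0.91, with the first 500 bp after the outermost start alone. Without 1 sample, body levels gave 1 to 4 called members and 2966 to 7558 genes for scGRO–seq against AGTuC, 0 to 3 and 985 to 5001 for inAGTuC, and 0 and 0 to 38 between scGRO–seq and inAGTuC, where promoter against body gave 0 members and 0 genes. With limma-trend the body counts were 1 member and 2841 genes for scGRO–seq and 1 and 1636 for inAGTuC, and the batch test called 5325 genes. With no minimum of reads, which tests more genes, they were 12098 and 7599 genes. Without Exp125c_c01, one of the AGTuC libraries, the counts of genes were 4143 and 3438 for promoter against body of scGRO–seq and inAGTuC, and 4732 and 2671 for body levels. The median of ratios left 1 member for inAGTuC. Between batches the called members were 3 with the median of ratios, 2 with no minimum and 7 with all reads as the total (4937 genes), and 2 to 5 with 1545 to 3710 genes without 1 batch. For cells with 2 or more reads 0 members and 0 genes were called without any 1 batch, where the smallest possible p is higher still. The median share of cells ran from 19.7 to 28%. The cause of these changes was not tested except where given. Of 1802 differences of members, 99 that passed in neither setting changed sign. Chosen after seeing the data, a fit of scGRO–seq against inAGTuC with the experiment as a block used the 3 scGRO–seq and 4 inAGTuC samples of Exp208, Exp234 and Exp261 with all barcodes (18248 sense body reads in the shallowest), and called 66 genes for body levels and 3 for promoter against body, with 0 members in both. AGTuC shares no experiment with the other assays, so for it the batch and the assay cannot be told apart.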
